A study of Mus musculus with 6 samples.

Results

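Bdnf, Ntf3, Ntrk2, Ntrk3, Ngfr, Sort1 and Sorcs2, which encode neurotrophins and their receptors, were examined in the brains of mice fed PLDP, a protease-treated decomposition product of porcine liver, and of mice fed a control diet. These 7 genes were selected by symbol and were all found among the 60354 features counted in each mouse. Male C57BL/6NCrSlc mice, 16 weeks old at the start, received for 16 weeks a modified purified diet with 20% PLDP (PLDP mice) or the same type of diet without PLDP and with its calories adjusted (control mice). All mice then underwent 17 days of behavioral tests, during which the PLDP diet was not given, and RNA of the whole brain was collected afterwards. Libraries of polyadenylated RNA came from control mice 2, 5 and 10 and from PLDP mice 17, 22 and 26, so that n = 3 on each diet.

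The neurotrophins are secreted growth factors that maintain neurons and adjust the strength of synapses. Brain-derived neurotrophic factor (BDNF, from Bdnf) acts mainly through the receptor tyrosine kinase TrkB (Ntrk2), and NT-3 (Ntf3) mainly through TrkC (Ntrk3). The uncleaved precursors bind the receptor p75NTR (Ngfr) together with a sortilin family protein, such as sortilin (Sort1) or SorCS2 (Sorcs2), and sortilin also sorts the BDNF precursor inside the cell. In the forebrain, Bdnf is transcribed mainly in excitatory neurons, and its transcription follows neuronal activity.

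The neuronal markers Rbfox3, Snap25, Syt1 and Nefl together had 3761 to 3917 CPM in every library (counts per 1000000 counts of the library, scaled by TMM factors). Total counts per mouse lay between 18797061 and 23938729, and mitochondrial genes took 2.53% to 2.80% of them. PLDP mouse 17 stood apart from the other 5 mice. On the second principal component of log2 CPM it lay at -25.6, and the others lay between -3.01 and 14.6. An edgeR quasi-likelihood test was made for 18580 features, with a call at an unadjusted p under 0.05 and the Benjamini-Hochberg adjusted p over all tested features beside it. At this rule 8.6% of the tested features were called, 4.91% higher in PLDP mice and 3.69% lower, and 0.0323% had an adjusted p under 0.05.

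Bdnf lies on chromosome 2 (chr2:109674700-109727007, plus strand, GRCm38) and has 11 annotated transcripts with several alternative first exons, each with a promoter of its own, joined to a shared coding exon. RefSeq start sites gave 7 promoter windows for Bdnf, each with 250 bases before and 50 bases after the start, and the first and last starts were 48221 bp apart. The counts are per gene, so they do not show which promoter a read came from. Windows are printed for 2 of them, on the plus strand of GRCm38.p6, because they are the first promoter of the gene (promoter I, chr2:109674450-109674749) and the activity-regulated promoter usually numbered IV (chr2:109692186-109692485). Capitals mark the cyclic AMP response element known at promoter IV, to which the transcription factor CREB binds.
Bdnf promoter I: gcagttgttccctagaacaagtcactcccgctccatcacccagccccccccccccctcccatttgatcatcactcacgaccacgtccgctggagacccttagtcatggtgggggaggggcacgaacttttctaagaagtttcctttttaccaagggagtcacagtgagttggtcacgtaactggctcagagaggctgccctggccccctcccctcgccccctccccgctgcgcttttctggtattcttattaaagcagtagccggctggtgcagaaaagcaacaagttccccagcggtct
Bdnf promoter IV: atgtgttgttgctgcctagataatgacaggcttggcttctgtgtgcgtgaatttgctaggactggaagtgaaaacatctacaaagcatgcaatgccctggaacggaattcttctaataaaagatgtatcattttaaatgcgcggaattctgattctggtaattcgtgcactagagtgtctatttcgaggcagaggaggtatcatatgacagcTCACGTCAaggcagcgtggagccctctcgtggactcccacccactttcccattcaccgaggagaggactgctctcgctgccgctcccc

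The element TCACGTCA starts 38 bases before the RefSeq start site of promoter IV. Read on both strands (TCACGTCA or TGACGTGA), it was present in 0.441% of all 32851 RefSeq promoter windows of this length and in 1 of the 7 Bdnf windows. Its core (CGTCA or TGACG), which lies inside it, was present in 20.8% of all windows and in the same 1 Bdnf window. The palindrome TGACGTCA was present in 1.79% of all windows and in none of the 11 windows of the 4 genes with an entry, Bdnf, Ntf3, Ngfr and Ntrk2. The E-box CACGTG was present in 7.15% of all windows and in 1 of the Ntf3 windows. These motifs were chosen with the sequences in view, and a match describes the sequence only.

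Bdnf, the ligand of TrkB, was higher in PLDP mice. The control mice had 20.9, 20.2 and 21.1 CPM (434, 445 and 435 counts), and PLDP mice 17, 22 and 26 had 25.3, 25.6 and 29.2 CPM (544, 610 and 547 counts). Every PLDP mouse was above every control mouse, and PLDP mouse 26 had the highest level. The mean was 20.7 ± 0.47 CPM in control mice and 26.7 ± 2.2 CPM in PLDP mice (SD, n = 3), a 1.29-fold difference. The log2 fold change was 0.36 with a standard error of 0.07 and a 95% interval of 0.21 to 0.52 (edgeR, unadjusted p = 0.000123, adjusted p = 0.0911). Of the tested features, 24 had a smaller p, and 7.29% had a larger log2 fold change in either direction.

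The call for Bdnf did not rest on 1 mouse, but the side of 0.05 on which its adjusted p fell depended on the test. Leaving out PLDP mouse 26 gave a log2 fold change of 0.30 and leaving out PLDP mouse 17 one of 0.40, the lowest and highest of such fits, and the unadjusted p was at most 0.00122 in the 6 fits that left out a mouse and in the 9 alternative settings. The adjusted p was 0.0112 without PLDP mouse 17, 0.00208 with no filter on low counts, 0.00368 by the edgeR exact test and 0.00369 by the likelihood ratio test, and it reached 0.446 without control mouse 5. DESeq2 gave Bdnf an unadjusted p of 8.8e-05 and no adjusted p. An antisense gene, Gm45346, shares 896 exonic bases with Bdnf on the opposite strand and had 1 to 6 counts per mouse.

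**Figure D1:**
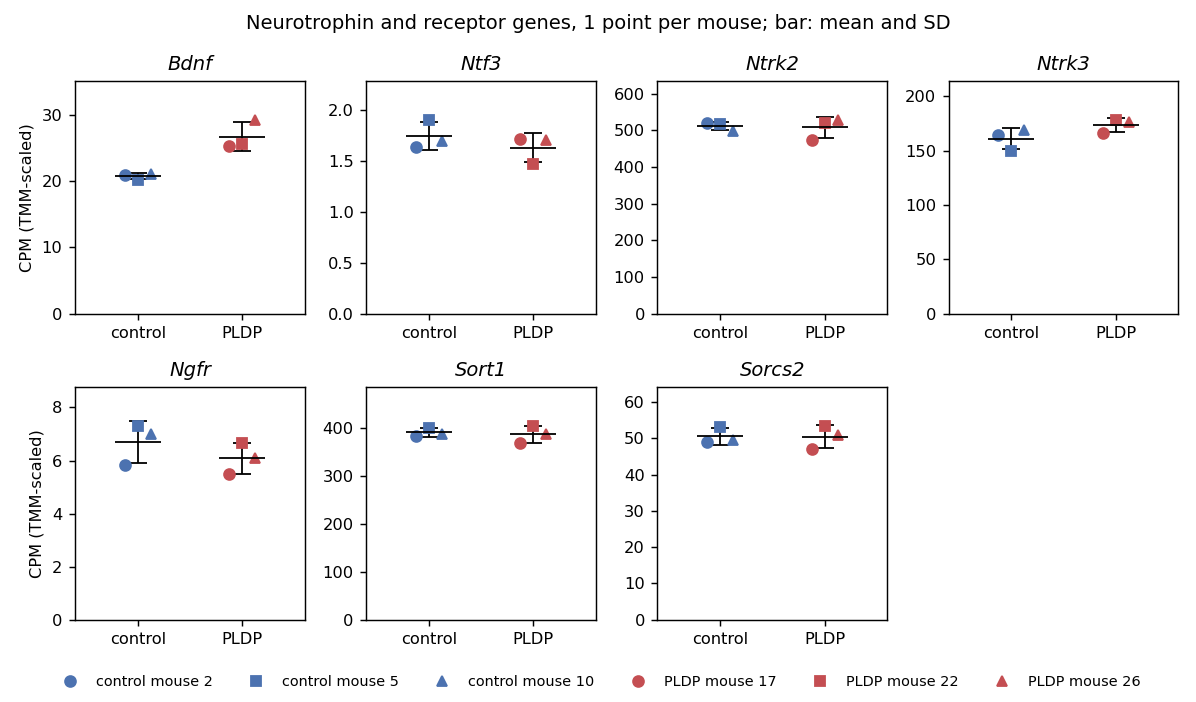
CPM (TMM-scaled) of the 7 genes in each mouse, with 1 point per mouse and horizontal bars for the mean and SD of each diet; each vertical axis starts at 0 and has its own range. For Bdnf the 3 PLDP mice lie above the 3 control mice, and for the other 6 genes the diets overlap.

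Ntf3, the ligand of TrkC, was close to the limit of what this depth can measure, with 32 to 42 counts per mouse. It had 1.64, 1.91 and 1.70 CPM in control mice and 1.72, 1.47 and 1.71 CPM in PLDP mice, and the diets overlapped. The fitted log2 fold change was -0.10 with a standard error of 0.21 (edgeR, adjusted p = 0.935). The 95% interval, -0.55 to 0.34, holds changes in either direction that are about as large as that of Bdnf, so a change of that size was not detectable for Ntf3. The gene lies at chr6:126101412-126166910 on the minus strand.

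Ntf5, which encodes NT-4, the other ligand of TrkB, had too few counts to be tested, with 0.0535 to 0.377 CPM in the 6 mice.

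Ntrk2 was the receptor tyrosine kinase gene with the most counts, and its level was nearly the same on both diets. It had 519, 518 and 499 CPM in control mice and 475, 520 and 529 CPM in PLDP mice. The lowest and the highest level both belonged to PLDP mice, mouse 17 and mouse 26. The log2 fold change was -0.012 with a 95% interval of -0.10 to 0.08 (edgeR, adjusted p = 0.964), and without PLDP mouse 17 it was 0.03. The upper bound lies below the lower bound of the Bdnf interval. The gene lies at chr13:58806569-59133970 on the plus strand and has 10 annotated transcripts. Full-length TrkB, made mainly in neurons, and truncated TrkB without the kinase, abundant in astrocytes, come from this gene and are pooled in its counts.

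Ntrk3 was higher in PLDP mice by a smaller margin. The control mice had 164, 150 and 169 CPM and the PLDP mice 166, 178 and 177 CPM. The diets overlapped, since PLDP mouse 17 lay below control mouse 10. The log2 fold change was 0.11 with a standard error of 0.05 (edgeR, unadjusted p = 0.0374, adjusted p = 0.543). The call was made in all 9 alternative settings, but of the 6 fits that left out a mouse it remained in 2. Without control mouse 5 the log2 fold change was 0.06 (edgeR, unadjusted p = 0.248), and the call was also lost without control mouse 2, PLDP mouse 22 or PLDP mouse 26, with log2 fold changes of 0.12, 0.09 and 0.10. The gene lies at chr7:78175959-78738012 on the minus strand, and its 20 annotated transcripts include forms of TrkC with and without the kinase, which the counts pool.

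Ngfr, which encodes p75NTR, is found in the adult brain chiefly in cholinergic neurons of the basal forebrain. It had 5.82, 7.30 and 6.98 CPM in control mice and 5.49, 6.67 and 6.09 CPM in PLDP mice, with 114 to 161 counts per mouse. PLDP mouse 17 was the lowest of all mice and control mouse 5 the highest, and the diets overlapped. Its log2 fold change was -0.14 with a standard error of 0.13 and a 95% interval of -0.41 to 0.13 (edgeR, adjusted p = 0.811). The gene lies at chr11:95568818-95587735 on the minus strand.

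The sortilin family genes did not separate by diet. Sort1 had 383, 400 and 388 CPM in control mice and 368, 404 and 388 CPM in PLDP mice (log2 fold change -0.014, 95% interval -0.10 to 0.07, edgeR adjusted p = 0.956). Sorcs2 had 48.9, 53.2 and 49.4 CPM in control mice and 47.1, 53.4 and 50.9 CPM in PLDP mice (log2 fold change -0.00043, 95% interval -0.12 to 0.12, edgeR adjusted p = 0.999). In both genes PLDP mouse 17 had the lowest level and PLDP mouse 22 the highest, and the sign of the fold change turned without PLDP mouse 17 or control mouse 5, and for Sorcs2 also with upper-quartile factors or a stricter filter. Sort1 lies at chr3:108284082-108361511 on the plus strand and Sorcs2 at chr5:36017180-36398139 on the minus strand. Of their relatives, Sorl1, which sorts the amyloid precursor protein, had 331 to 367 CPM in control mice and 354 to 385 CPM in PLDP mice (log2 fold change 0.08, edgeR adjusted p = 0.644), and leaving out 1 mouse gave 0.04 (control mouse 5) to 0.11 (PLDP mouse 17, the only such fit that called it). Sorcs1 and Sorcs3 had log2 fold changes of -0.015 and 0.02 (edgeR adjusted p = 0.975 and 0.956), and the sign turned without control mouse 5 or PLDP mouse 17 for Sorcs1 and without PLDP mouse 22 for Sorcs3.

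Of the 7 genes, 2 were called higher, Bdnf and Ntrk3, where 4.91% of all features were called higher. None was called lower by edgeR at an unadjusted p under 0.05, where 3.69% of all features were called lower. DESeq2 also called none of the 7 lower, and it called 362 of all features lower. Of the 7 genes, 2 had a fold change above 0, against 49.8% of all features. Only Bdnf had no overlap between the diets, where 14.2% of all features had none (7.29% with all PLDP mice above and 6.89% with all PLDP mice below). The median log2 fold change of the 7 genes was -0.012, and that of all tested features was -0.00062. By the edgeR quasi-likelihood test with all 6 mice and the filter on low counts, no member had an adjusted p under 0.05, and the settings that put Bdnf below it are those named above.

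**Figure D2:**
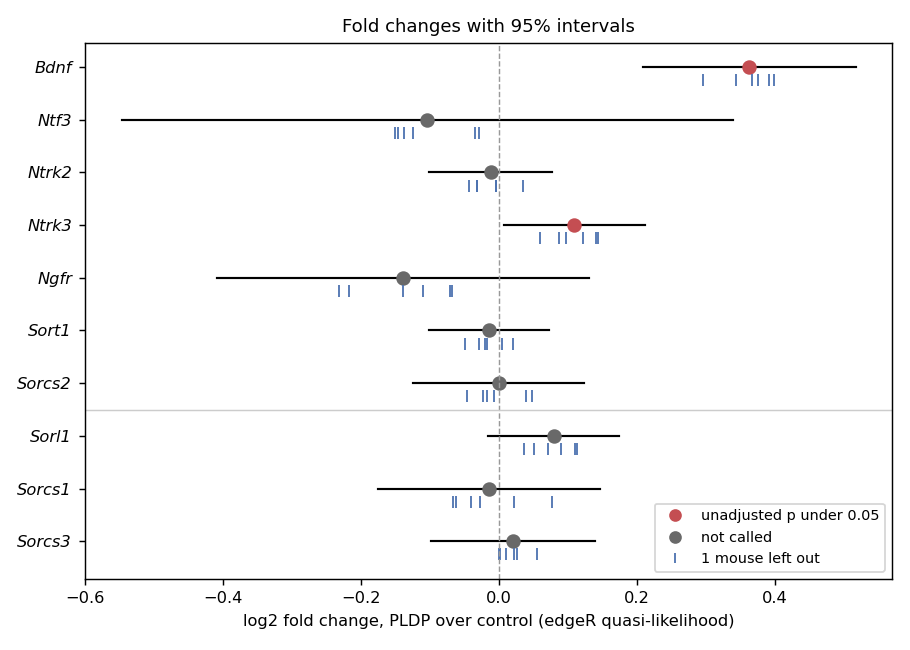
Log2 fold change of PLDP over control mice for the 7 genes (above the line) and the related genes Sorl1, Sorcs1 and Sorcs3 (below it), with bars for the 95% interval of the edgeR test and short ticks for the fits that left out 1 mouse each. The intervals of Bdnf (0.21 to 0.52) and Ntrk3 lie above 0, and all others include 0.

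Ratios between genes within a mouse do not depend on how the libraries are scaled. Per 1000 Ntrk2 counts there were 40.2, 38.9 and 42.3 Bdnf counts in the control mice and 53.3, 49.2 and 55.3 in the PLDP mice. Every PLDP mouse had more ligand counts per receptor count than every control mouse. The log2 ratio of Bdnf to Ntrk2 was -4.63 ± 0.06 in control mice and -4.25 ± 0.09 in PLDP mice (SD, n = 3), a difference of 0.38 (exact two-sided permutation test, p = 0.1, the smallest p that 3 against 3 mice can give, adjusted p = 0.4 over the 4 ratios compared). The other ratios overlapped between the diets. Ntf3 to Ntrk3 differed by -0.21 (exact permutation p = 0.4), Ntrk2 to Ntrk3 by -0.12 (exact permutation p = 0.2) and Ngfr to Ntrk2 by -0.12 (exact permutation p = 0.4) on the log2 scale, and each had an adjusted p of 0.4. Leaving out 1 mouse moved these differences, to between -0.28 and -0.09 for Ntf3 to Ntrk3, between -0.18 and -0.06 for Ntrk2 to Ntrk3 and between -0.23 and -0.07 for Ngfr to Ntrk2.

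Levels of different genes can be compared only per length. Per kilobase of merged exons, Sort1 had 51.5 ± 1.19 CPM and Ntrk2 26.5 ± 0.58 CPM in control mice (SD, n = 3), followed by Sorcs2 with 5.74 ± 0.27, Ntrk3 with 5.34 ± 0.33, Bdnf with 3.33 ± 0.08, Ngfr with 1.95 ± 0.23 and Ntf3 with 1.02 ± 0.08. Receptor genes thus stood above the ligand genes, except Ngfr, which lay between Bdnf and Ntf3. The ranges of Sorcs2 and Ntrk3 over the 6 mice overlapped, and those of the other neighbors did not. In PLDP mice, Bdnf had 4.29 ± 0.35 CPM per kilobase and kept the same place. The order depends on the length used. Ntrk2 and Ntrk3 have merged exons of 19.3 and 30.2 kb, and their median coding transcripts have 3.05 and 2.73 kb. Per kilobase of the median coding transcript, Ntrk2 came first with 168 CPM, Ntrk3 had 59.1 and Sort1 57.2, Sorcs2 had 24.2 and Bdnf 5.31.

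The pattern of Bdnf over the 6 mice was compared with that of 13418 named genes by the Pearson correlation of log2 CPM, as a description over mice that differ in diet. The 5 genes most like Bdnf were Gemin7 (r = 0.995), which encodes a subunit of the SMN complex, Slc25a25 (r = 0.993), a mitochondrial carrier of ATP, Taf15 (r = 0.988), an RNA-binding protein, the long noncoding RNA Kcnq1ot1 (r = 0.987) and Cacng2 (r = 0.987), an auxiliary subunit of AMPA receptors. Gemin7 had 2.27 to 2.42 CPM in control mice and 2.79 to 3.21 CPM in PLDP mice, and Slc25a25 moved by only 0.06 on the log2 scale, so the likeness concerns the order and spacing of the mice and not the size of the change. Among the 7 genes themselves, Sort1 and Sorcs2 had the highest correlation over the 6 mice (r = 0.967), Bdnf and Ntrk3 had r = 0.746, and Bdnf and Ntrk2 had r = 0.07.

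Genes on the path from the neurotrophin precursor to the receptor are read against the 8.6% of all features that were called in either direction. Of 17 genes for processing and release of the precursors, among them those of the protease furin and the vesicle protein CADPS2, 14 were tested. The others, Plg, Mmp3 and Mmp7, had too few counts. Of the 14, 9 had a fold change above 0 (median log2 fold change 0.02). None was called higher by edgeR or DESeq2 at an unadjusted p under 0.05, and 1 was called lower. The gene called lower was Serpini1, which encodes neuroserpin, an inhibitor of tissue plasminogen activator (log2 fold change -0.09, edgeR adjusted p = 0.559). Of 39 Trk adaptors and downstream kinases, 15 had a fold change above 0, 1 was called higher and 1 lower (median -0.022). Shc3, a Trk adaptor of neurons, was called higher (log2 fold change 0.15, edgeR adjusted p = 0.450), and Pik3cb, a catalytic subunit of phosphoinositide kinase, was called lower (log2 fold change -0.14, edgeR adjusted p = 0.562). None of these 3 calls held throughout. The call in the first list was lost by the edgeR exact and likelihood ratio tests and on leaving out control mouse 2 or PLDP mouse 17, that of Pik3cb with no filter on low counts, with DESeq2 and on leaving out control mouse 2 or 5, and that of Shc3 without control mouse 10, PLDP mouse 22 or PLDP mouse 26. With PLDP mouse 17 left out, the number called higher was 1 in the first list and 2 in the second. By comparison, of 9 genes of the GDNF family, another group of growth factors with their receptors, 7 were tested, and edgeR called none in either direction at an unadjusted p under 0.05 (median 0.0065), nor did DESeq2, and 1 was called higher with PLDP mouse 17 left out.

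Among the partners of p75NTR, Rtn4r and Lingo1 were higher in PLDP mice. Of 19 tested genes of p75NTR signaling and cleavage, 12 had a fold change above 0, 2 were called higher and 1 lower (median 0.012), where 4.91% of all features were called higher and 3.69% lower. Rtn4r encodes the Nogo receptor, which binds inhibitors of axon growth and signals through p75NTR, and it had 55.4, 53.7 and 53.7 CPM in control mice and 68.1, 62.3 and 62.8 CPM in PLDP mice. Lingo1 encodes another subunit of that complex, and it had 201, 196 and 190 CPM in control mice and 221, 221 and 219 CPM in PLDP mice. Neither gene overlapped between the diets, as in 14.2% of all features. For these genes the log2 fold change was 0.25 with a standard error of 0.05 for Rtn4r (edgeR, adjusted p = 0.125) and 0.17 with a standard error of 0.04 for Lingo1 (edgeR, adjusted p = 0.147). The calls of Rtn4r and Lingo1 were made in all 9 alternative settings and in all 6 fits that left out a mouse. The call in the other direction was Mapk9, which encodes the kinase JNK2 (log2 fold change -0.09, edgeR adjusted p = 0.517), and this call was lost without control mouse 2, control mouse 10, PLDP mouse 17 or PLDP mouse 26.

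**Figure D3:**
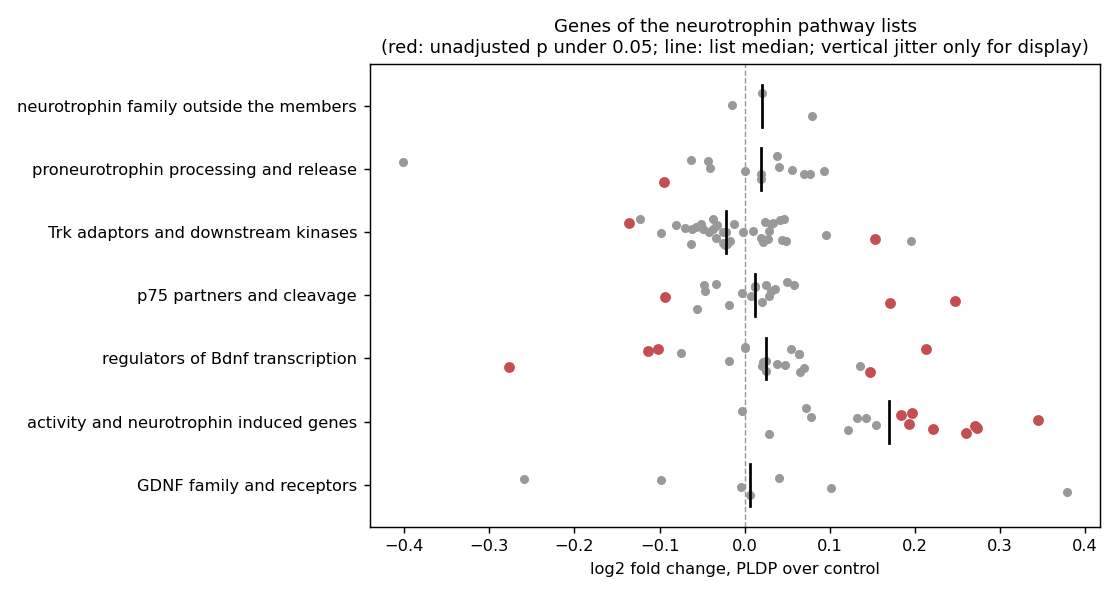
Log2 fold change of PLDP over control mice for each tested gene of the 6 neurotrophin pathway lists and of the GDNF family, with 1 point per gene, red where the unadjusted p was under 0.05, and a vertical line at the list median; points are shifted vertically only for display. The activity and neurotrophin induced genes have a median of 0.17, and those of the other lists lie between -0.022 and 0.025.

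Of 21 known regulators of Bdnf transcription, 16 had a fold change above 0, 2 were called higher and 3 lower (median 0.025), where 49.8% of all features were above 0, 4.91% were called higher and 3.69% lower. Crebbp, the coactivator of CREB, had 53.0, 54.3 and 55.5 CPM in control mice and 58.6, 63.2 and 67.1 CPM in PLDP mice (log2 fold change 0.21, standard error 0.06, edgeR adjusted p = 0.256). Bhlhe40, which binds E-boxes as a repressor, had a log2 fold change of 0.15 (edgeR adjusted p = 0.399). Carf, a calcium-responsive activator of promoter IV, was lower, with 16.8, 19.6 and 17.1 CPM in control mice and 13.8, 16.3 and 13.9 CPM in PLDP mice (log2 fold change -0.28, standard error 0.09, edgeR adjusted p = 0.368). Mef2a and the histone deacetylase gene Hdac2 were the other genes called lower (log2 fold changes -0.10 and -0.11, edgeR adjusted p = 0.472 and 0.506). Creb1 itself had a log2 fold change of 0.06 (edgeR adjusted p = 0.781) and was not called. In this list the number called higher rose to 5 when PLDP mouse 17 was left out and dropped to 1 when PLDP mouse 26 was, and the number called lower became 1 on leaving out control mouse 5 or PLDP mouse 26.

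Of 16 genes induced by neuronal activity and by neurotrophins, 15 had a fold change above 0 (49.8% of all features), 8 were called higher by edgeR (4.91% of all features) and none lower by edgeR or by DESeq2 at an unadjusted p under 0.05 (median 0.17). Vgf, a secreted peptide precursor that BDNF induces, had 223, 216 and 207 CPM in control mice and 241, 261 and 278 CPM in PLDP mice (log2 fold change 0.27, standard error 0.05, edgeR adjusted p = 0.0735). Dusp4, a phosphatase of ERK, had a log2 fold change of 0.35 (edgeR adjusted p = 0.147), and Nptx2, a synaptic pentraxin, one of 0.27 (edgeR adjusted p = 0.194). In these 3 genes, as in Bdnf, every PLDP mouse was above every control mouse, as in 7.29% of all features. The other genes called were Homer1, Spry4, Arc, Egr3 and Fosb.

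PLDP mouse 17 differed from the other PLDP mice in this group of genes. It was the lowest of the 3 PLDP mice in 15 of the 16 genes, below every control mouse in 8 and above every control mouse in 4, and PLDP mice 22 and 26 were each above every control mouse in 14. Fos, chosen after its values were seen, had 60.6, 61.1 and 54.5 CPM in control mice and 42.6, 67.9 and 75.8 CPM in PLDP mice 17, 22 and 26. Npas4, an activity-induced regulator of Bdnf chosen in the same way, had 27.9, 26.9 and 25.2 CPM against 20.5, 30.1 and 37.6 CPM. Bdnf was above every control mouse in PLDP mouse 17 too. The number of the 16 genes called higher was 14 without PLDP mouse 17, 3 without control mouse 2 or PLDP mouse 22, 4 without PLDP mouse 26, and 5 without control mouse 5 or control mouse 10. It was 4 by DESeq2 and 5 by limma voom. Over all features, 913 were called higher with all mice, 1293 without PLDP mouse 17, 640 without control mouse 2 and 793 without PLDP mouse 22. This number was 743 without PLDP mouse 26, 713 without control mouse 5 and 936 without control mouse 10. By DESeq2 it was 564 and by limma voom 912.

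**Figure D4:**
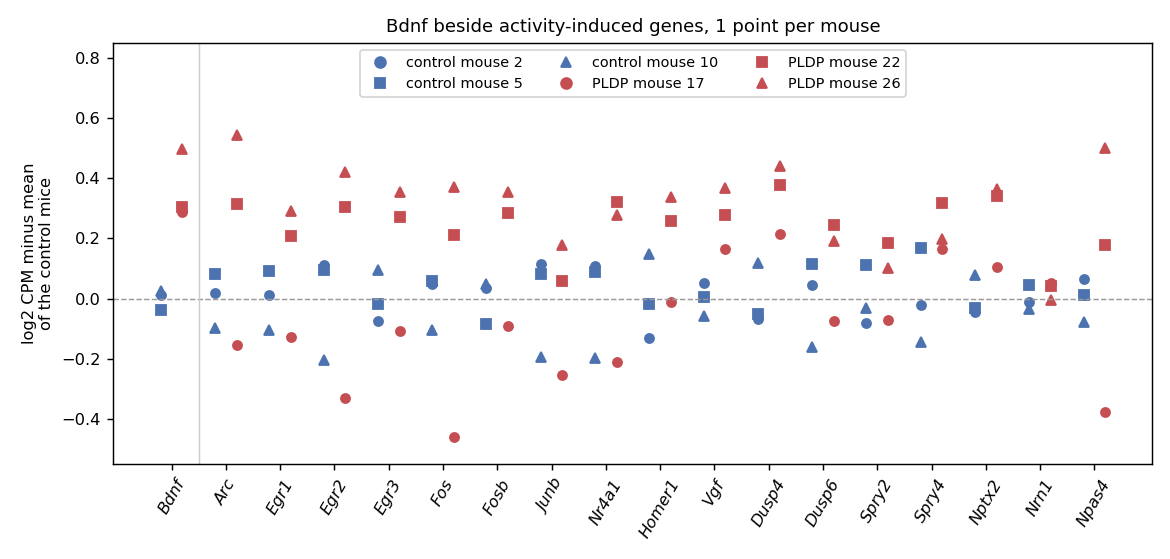
Log2 CPM minus the mean of the control mice for Bdnf (left of the line), the 16 activity and neurotrophin induced genes and Npas4, with 1 point per mouse. PLDP mouse 17 lies below every control mouse in 8 of the 16 genes, and for Bdnf it lies with the other PLDP mice above the controls.

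Over all 6 lists, 112 of 116 genes were tested, 69 had a fold change above 0, 13 were called higher and 6 lower, and the median log2 fold change was 0.021, beside 4.91% and 3.69% called and a median of -0.00062 over all features. By the edgeR quasi-likelihood test with all 6 mice and the filter, none had an adjusted p under 0.05, the smallest being 0.0735 for Vgf. Other settings put some below it. Over all settings the adjusted p of Vgf ran from 1.54e-06 to 0.381, that of Rtn4r from 0.00753 to 0.464 and that of Lingo1 from 0.0304 to 0.506, and by DESeq2 these were 0.00131, 0.039 and 0.039. The edgeR exact test gave Vgf, Dusp4 and Nptx2 adjusted p values of 0.00174, 0.0137 and 0.0422. The number called higher was 25 without PLDP mouse 17, 8 without control mouse 2 and 7 without PLDP mouse 22 or PLDP mouse 26. The same fits called 1293, 640, 793 and 743 of all features higher, in that order.

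Markers of some cell types and brain regions also moved with diet, and their part in the results above was not tested. In whole brain, fewer cells of a type and less RNA per cell cannot be told apart. Of 8 hindbrain markers, 7 were tested and all 7 were lower in PLDP mice (median log2 fold change -0.92), among them Slc6a5, Glra1 and Hoxb3 with log2 fold changes of -0.66, -0.50 and -1.05 (edgeR adjusted p = 0.0369, 0.0592 and 0.0785), and their summed level was 137 to 148 CPM in control mice and 75.2 to 105 CPM in PLDP mice. The summed level of 6 markers of cortical and hippocampal projection neurons, the main source of Bdnf, was 1074 to 1124 CPM in control mice and 1129 to 1183 CPM in PLDP mice, and 1 of them, Neurod2, was called higher (log2 fold change 0.14, edgeR adjusted p = 0.448). Slc17a7 made up most of this sum, with 928, 923 and 888 CPM in control mice and 989, 960 and 925 CPM in PLDP mice. It overlapped between the diets and was not called (edgeR, unadjusted p = 0.0687). Of the 6 markers, 5 had a log2 fold change above 0, and Neurod6 had one of -0.05. Endothelial markers summed to 196 to 202 CPM and 218 to 222 CPM, with 3 of 5 called higher (Pecam1, Slc2a1 and Flt1), where 4.91% of all features were called higher. The other endothelial markers, Cldn5 and Kdr, were not called (log2 fold changes 0.03 and -0.10). Choroid plexus markers summed to 740 to 794 CPM and 580 to 734 CPM, with Ttr and Folr1 of 5 called lower. Over all features, 3.69% were called lower. Ttr made up most of this sum, with 679, 729 and 717 CPM in control mice and 535, 670 and 617 CPM in PLDP mice. The other choroid plexus markers, Kl, Aqp1 and Clic6, were not called (log2 fold changes -0.18, -0.11 and -0.03).

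For the cells that carry Ngfr, the 4 markers of forebrain cholinergic neurons reported here summed to 21.05 to 23.19 CPM in control mice and 17.0 to 19.9 CPM in PLDP mice. Of the 4, only the choline transporter gene Slc5a7, which motor neurons of the hindbrain also express, was called (log2 fold change -0.60, edgeR adjusted p = 0.0785), and Chat had a log2 fold change of 0.03. The calls in this and the following lists stand beside the 8.6% of all features called in either direction (4.91% higher and 3.69% lower). Of 8 astrocyte markers, which bear on truncated TrkB, 1 was called, Aqp4 (log2 fold change -0.11, edgeR adjusted p = 0.484), and their summed level overlapped between the diets (2859 to 2913 CPM and 2826 to 3026 CPM). In the other lists the genes called were Nefl of the neuronal list, Mbp of the oligodendrocyte list and P2ry12 of the microglial list, all lower, and Rgs5 of the pericyte list, higher, each with an edgeR adjusted p of at least 0.448.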

How the data were processed

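Each library was 1 mouse, with groups and mouse numbers taken from the sample labels. The authors deposited whole-number read counts per gene without normalization. The submitters' processing notes name cutadapt 2.9, HISAT2 2.2.0, featureCounts 2.6.0 and DESeq2 1.6.3 and the builds GRCm38 and GRCh38; the annotation, the use of strand and the handling of reads shared between genes are not given in the sources used here, so overlapping genes are uncertain to that extent. Symbols and coordinates were taken by Ensembl identifier from GENCODE M21 (GRCm38), which held 54777 of 55034 identifiers, and promoters from RefSeq (GRCm38.p6).

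Counts were filtered with filterByExpr (minimum count 10, minimum total 15), scaled by TMM and tested by glmQLFTest in edgeR 4.0.16 (R 4.3.3) with diet as the only term, and the code was tested on simulated data. CPM and ratios were computed here. Ratios within a mouse were compared by exact two-sided permutation tests. Alternatives were no filter, at least 10 counts in every mouse, other scaling factors (relative log expression, upper quartile, library size only), DESeq2 1.42.0, the edgeR exact and likelihood ratio tests, limma 3.58.1 voom, and leaving out each mouse.

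The members and lists were chosen with earlier results of these data known. The text names all 7 members, the other family genes, up to 3 called genes with the smallest p of each list and the 5 genes most like Bdnf; further genes were named after their values were seen. Each list was described by its counts and median, without a set test. Some genes that the rule or a list reaches are left out and not reported here. Each mouse was 1 replicate, and pairs of mice of 1 diet differed by more than counting noise. The edgeR p-values set the difference between the diets against the variation between these mice, which is estimated in part from all tested features.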

Additional observations from a re-analysis of the deposited data

How the results depend on the processing

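The direction and the call of Bdnf, and the absence of a call for Ntf3 and Ngfr, held in all 9 alternative settings and all 6 fits without 1 mouse. Without 1 mouse, the log2 fold change ranged from -0.15 to -0.029 for Ntf3 and from -0.23 to -0.068 for Ngfr. Log2 fold changes near 0 changed sign. Ntrk2 reached 0.034 without PLDP mouse 17, with a range of -0.043 to 0.034 over the fits without 1 mouse. Sort1 ranged from -0.049 to 0.021 (0.0040 without control mouse 5), Sorcs2 from -0.046 to 0.047 (0.038 without control mouse 5), Sorcs1 from -0.066 to 0.076 (0.021 without control mouse 5) and Sorcs3 from -0.00058 to 0.056. Sorcs2 was also 8.7e-05 with at least 10 counts in every mouse and 0.0047 with upper-quartile factors. Ntrk3 ranged from 0.060 to 0.14, so that 1 to 2 of the 7 genes were called. Over all features, the 913 called higher became 564 with DESeq2 and 640 to 1293 without 1 mouse, and the 685 called lower became 362 with DESeq2, 1046 with no filter and 493 to 1072 without 1 mouse. In the 6 pathway lists, the 13 called higher became 7 to 25 without 1 mouse, and the 6 called lower became 2 to 5 without 1 mouse. The cause was not tested. No paired analysis was possible because the mice of the 2 diets share no replicate number. Depth limits Ntf3, with 32 to 42 counts per mouse, and Ntf5, which had too few to be tested.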
